A study of Mus musculus with 35 samples.

Results

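The complement genes described here are C1qa, C1qb, C1qc, C3, C4b, Cfb, C3ar1, C5ar1 and Serping1. They were taken by name from the 21203 genes of the deposited expression table, where all 9 were found, and all 9 passed the filter on low counts that left 17131 genes to test. RNA was sequenced from the brain of male C57BL/6NCrl mice, aged 8 to 9 weeks at the start of the procedures and not at sampling, labelled as left cortex and taken from the tissue round the injection site. A closed head injury, a blow to the intact skull that leaves a diffuse brain injury, was followed on day 5 by an injection into the left hippocampus of phosphate-buffered saline (PBS), of 150000 mesenchymal stromal cells (MSC) grown from C57BL/6N mice, or of 150000 MSC transfected with synthetic interleukin-4 mRNA (IL-4 MSC). Tissue was taken 2 days after the injection, 1 week post injury (1 wpi), or 16 days after it, 3 wpi. Each injured group held 5 mice except PBS at 3 wpi, with 4 analysed because the authors excluded 1, and Sham mice had neither impact nor injection. The 5 Sham mice were used as 1 group, as the labels give them, although 2 were taken at week 1 and 3 at week 3. Comparisons with Sham hold the impact and the injection together, and those between weeks hold time after injury with time after injection. The comparison of IL-4 MSC with PBS holds the injected cells, their transfection and interleukin-4 together. The MSC were not transfected, so the comparison with MSC still holds the transfection and its synthetic mRNA with interleukin-4.

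Complement is a cascade of blood and tissue proteins that tags material for removal and calls in immune cells. The C1q recognition molecule, built from chains encoded by C1qa, C1qb and C1qc, opens the classical pathway, which runs through C4 to C3, and factor B, the product of Cfb, forms the alternative pathway convertase that amplifies C3 cleavage. The small fragments C3a and C5a signal through the receptors encoded by C3ar1 and C5ar1, and the C1 inhibitor, the product of Serping1, blocks the first proteases of the classical pathway. In the brain C1q is made mainly by microglia, C4 and C3 are made by astrocytes, microglia and macrophages, and complement is known for tagging synapses as well as debris.

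The 34 libraries held 29838423 to 41554322 estimated counts each, and 3 counts corresponded to 0.0722 to 0.101 CPM (counts scaled to a common library size), the scale used below for levels across mice. C1qa, C1qb, C1qc, C3, C4b, C5ar1 and Serping1 had whole-number counts in 34 of 34 libraries (within 0.01), whereas C3ar1 had none that were whole and Cfb was whole in 17 of 34. For C3ar1 and Cfb the pseudo-alignment thus divided reads with another transcript, and their levels are less certain. C4b has a near copy, C4a, that was not analysed here and could share its reads. In 2 mice several members stood far above the rest of the group, Sham replicate 5 and MSC 3 wpi replicate 5, so calls that rest on them are also given without them. All comparisons with Sham use the same 5 mice and are not independent of each other. In bulk tissue more cells of a type and more RNA per cell cannot be told apart, and RNA of the injected cells, which are also from mice, cannot be separated from that of the host.

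All 9 members lie on the minus strand of GRCm38 and are protein coding. C1qa (ENSMUSG00000036887, chr4:136895917-136898803), C1qc (ENSMUSG00000036896, chr4:136889804-136893065) and C1qb (ENSMUSG00000036905, chr4:136880129-136886187) fill a stretch of 18.7 kb. Cfb (ENSMUSG00000090231, chr17:34856374-34862518) and C4b (ENSMUSG00000073418, chr17:34728380-34743882) lie 112.5 kb apart on the chromosome that also carries C3 (ENSMUSG00000024164, chr17:57203970-57228136). C3ar1 (ENSMUSG00000040552) is at chr6:122847138-122856161, C5ar1 (ENSMUSG00000049130) at chr7:16246743-16259540 and Serping1 (ENSMUSG00000023224) at chr2:84765387-84775444.

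The RefSeq promoter sequences of C1qb and C1qc are shown because these neighbouring genes rose by nearly the same amount at 1 wpi, and that of C3 because it had the largest change of the 9 members against Sham. Each is the 250 bases before the RefSeq transcription start in GRCm38.p6, minus strand, read 5′ to 3′ along the gene, at chr4:136886201-136886450 for C1qb, chr4:136892915-136893164 for C1qc and chr17:57228137-57228386 for C3. Capitals mark the match to a searched motif.
C1qb: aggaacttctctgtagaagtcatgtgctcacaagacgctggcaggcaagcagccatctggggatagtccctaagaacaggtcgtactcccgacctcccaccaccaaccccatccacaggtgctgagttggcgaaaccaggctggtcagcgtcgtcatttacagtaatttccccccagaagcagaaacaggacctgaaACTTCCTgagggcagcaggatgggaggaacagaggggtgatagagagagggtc
C1qc: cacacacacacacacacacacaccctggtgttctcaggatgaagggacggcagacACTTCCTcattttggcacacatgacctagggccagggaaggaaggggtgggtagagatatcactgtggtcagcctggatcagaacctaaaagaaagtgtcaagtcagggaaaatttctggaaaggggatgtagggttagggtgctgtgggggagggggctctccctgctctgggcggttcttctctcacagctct
C3: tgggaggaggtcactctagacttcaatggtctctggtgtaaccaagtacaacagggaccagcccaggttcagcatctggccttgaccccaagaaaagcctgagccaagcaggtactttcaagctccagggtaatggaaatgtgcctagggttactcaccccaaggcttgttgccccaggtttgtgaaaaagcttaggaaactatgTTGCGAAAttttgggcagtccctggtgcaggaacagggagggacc

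The capitals in C1qb (bases 53 to 47 before the start) and C1qc (bases 195 to 189) are AGGAAGT read on the opposite strand, the core bound by the myeloid factor PU.1, and this motif lay in 7.69% of the 32851 RefSeq promoters of this length on either strand. The capitals in C3 (bases 45 to 38) match TTGCNNAA, a C/EBP-type motif held by 9.56% of promoters. Of the 5 members with a RefSeq promoter in the table, C5ar1 held AGGAAGT at 2 places (bases 190 to 184 and 72 to 66), and C3ar1 held none of the motifs searched. The RefSeq starts of C5ar1 and C1qc lie inside the gene spans given above, so their windows overlap those spans, and both C5ar1 matches fall within the annotated gene. The STAT6-type motif (TTC, 4 bases of any kind, GAA, in 5.85% of promoters), the same arms with 3 bases between them (7.02%) and the interferon-type motif (GAAA, 2 bases of any kind, GAAA, 2.98%) were found on neither strand of the 5 windows. A match in these letters is a description and not a binding site, and no match says only that the letters are not in this window. C1qa, C4b, Cfb and Serping1 had no entry.

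To compare the genes with each other, levels were read in TPM, a transcript's share of each library, which accounts for transcript length. In Sham cortex the C1q chains led, with 67.1 ± 16.8 TPM for C1qa, 57.4 ± 16.3 for C1qb and 56.7 ± 21.7 for C1qc (mean ± SD, n = 5). C4b followed at 14.7 ± 2.57 TPM, Serping1 at 7.12 ± 1.46 and Cfb at 5.61 ± 0.706, while C3ar1 (1.23 ± 0.526), C5ar1 (0.855 ± 0.275) and C3 (0.751 ± 0.246) were lowest. Between neighbours in this order the mice did not overlap only from C1qc to C4b, from C4b to Serping1 and from Cfb to C3ar1, so the order within the C1q chains, between Serping1 and Cfb, and among the 3 lowest genes was not larger than the spread between mice.

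In IL-4 MSC mice at 1 wpi the same genes stood at 282 ± 34 TPM for C1qa, 88.6 ± 8.27 for C4b, 28.6 ± 1.47 for C3, 24.2 ± 2.70 for Serping1, 17.5 ± 1.51 for C3ar1, 15.6 ± 2.01 for Cfb and 8.56 ± 2.34 for C5ar1. C3 thus moved from rank 9 among the members in Sham and PBS 1 wpi, and rank 7 in MSC 1 wpi, to rank 5. C4b held rank 4 and C1qa rank 1 by mean in all 7 groups, and C1qb and C1qc held ranks 2 and 3. In IL-4 MSC 1 wpi the neighbours whose mice did not overlap were C1qc and C4b, C4b and C3, Serping1 and C3ar1, and Cfb and C5ar1.

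**Figure D1:**
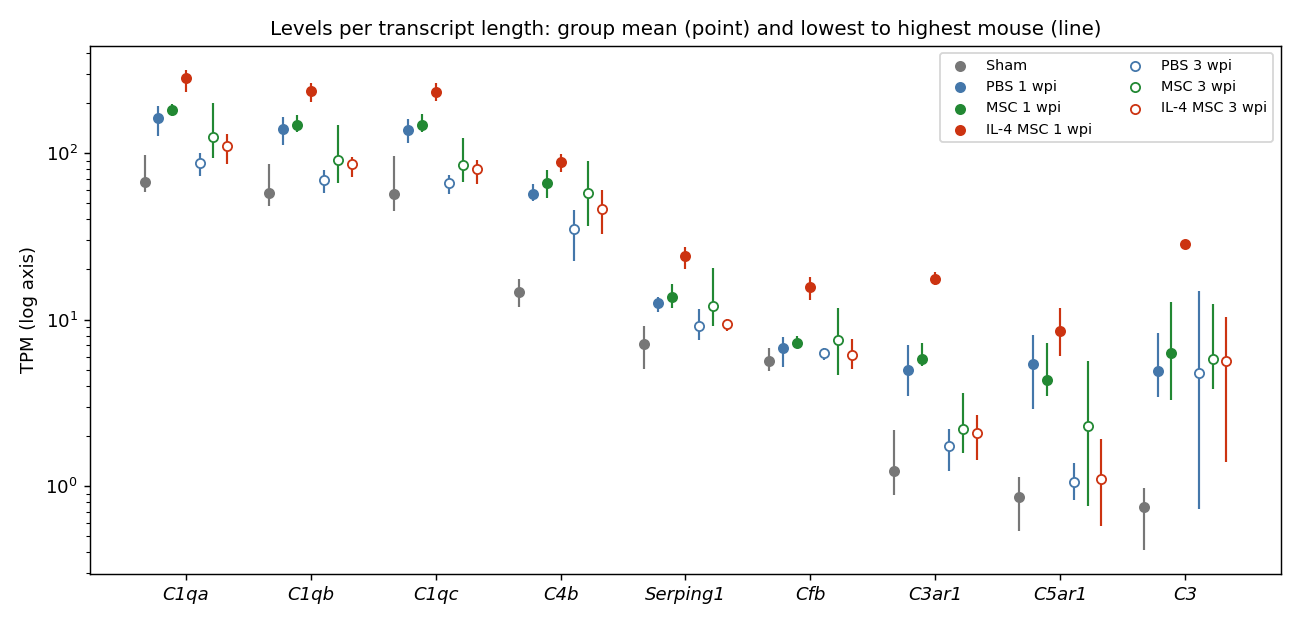
TPM of the 9 complement genes (log axis) in the 7 groups. Points are group means, filled for Sham and 1 wpi and open for 3 wpi. Lines run from the lowest to the highest mouse. C3 lay at 0.414 to 0.966 TPM in Sham, below the other members by mean, and at 26.9 to 30.1 in IL-4 MSC 1 wpi, while the C1q chains were highest by mean in every group.

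At 1 wpi nearly the whole group was higher than in Sham. In PBS mice 8 of 9 members rose (adjusted p under 0.05, edgeR quasi-likelihood test adjusted over 17131 genes), where 8.73% of all genes tested were called higher. In MSC mice 9 of 9 rose, against a background of 11%, and in IL-4 MSC mice 9 of 9 rose, against 18.4%. The median log2 fold change of the members was 1.26 in PBS, 1.41 in MSC and 2.24 in IL-4 MSC, and that of all genes lay between −0.02 and −0.01. In CPM every mouse of each 1 wpi group was above every Sham mouse for 9 of 9 members. This held for 6.54%, 8.44% and 15.4% of genes in PBS, MSC and IL-4 MSC. In TPM the PBS and Sham mice overlapped for Cfb.

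At 3 wpi fewer members differed from Sham. In PBS mice 1 member was called, C4b, where 0.0233% of genes were called higher. In MSC mice 6 members rose, against 1.11% of genes, and in IL-4 MSC mice 4 rose, against 2.76%. The median log2 fold changes of the members were 0.38, 0.83 and 0.71 in these groups. Every mouse was above every Sham mouse in CPM for 1 member in PBS (1.23% of genes), 3 in MSC (1.68%) and 2 in IL-4 MSC (2.01%). The count in MSC mice rested on few animals. It fell to 2 members, C1qa and C4b, without MSC 3 wpi replicate 5, rose to 8 without Sham replicate 5 and was 5 without both, and it was 2 or 3 when Sham replicate 1, 2, 3 or 4 was left out. The count in IL-4 MSC mice was 6 without Sham replicate 5. When each group was fitted with Sham alone, C3 and C4b were called in MSC and IL-4 MSC, and the calls of C1qa (adjusted p = 0.114 and 0.0586) and C1qb (adjusted p = 0.355 and 0.121) in both and of C5ar1 (adjusted p = 0.266) and Serping1 (adjusted p = 0.291) in MSC were lost.

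**Figure D2:**
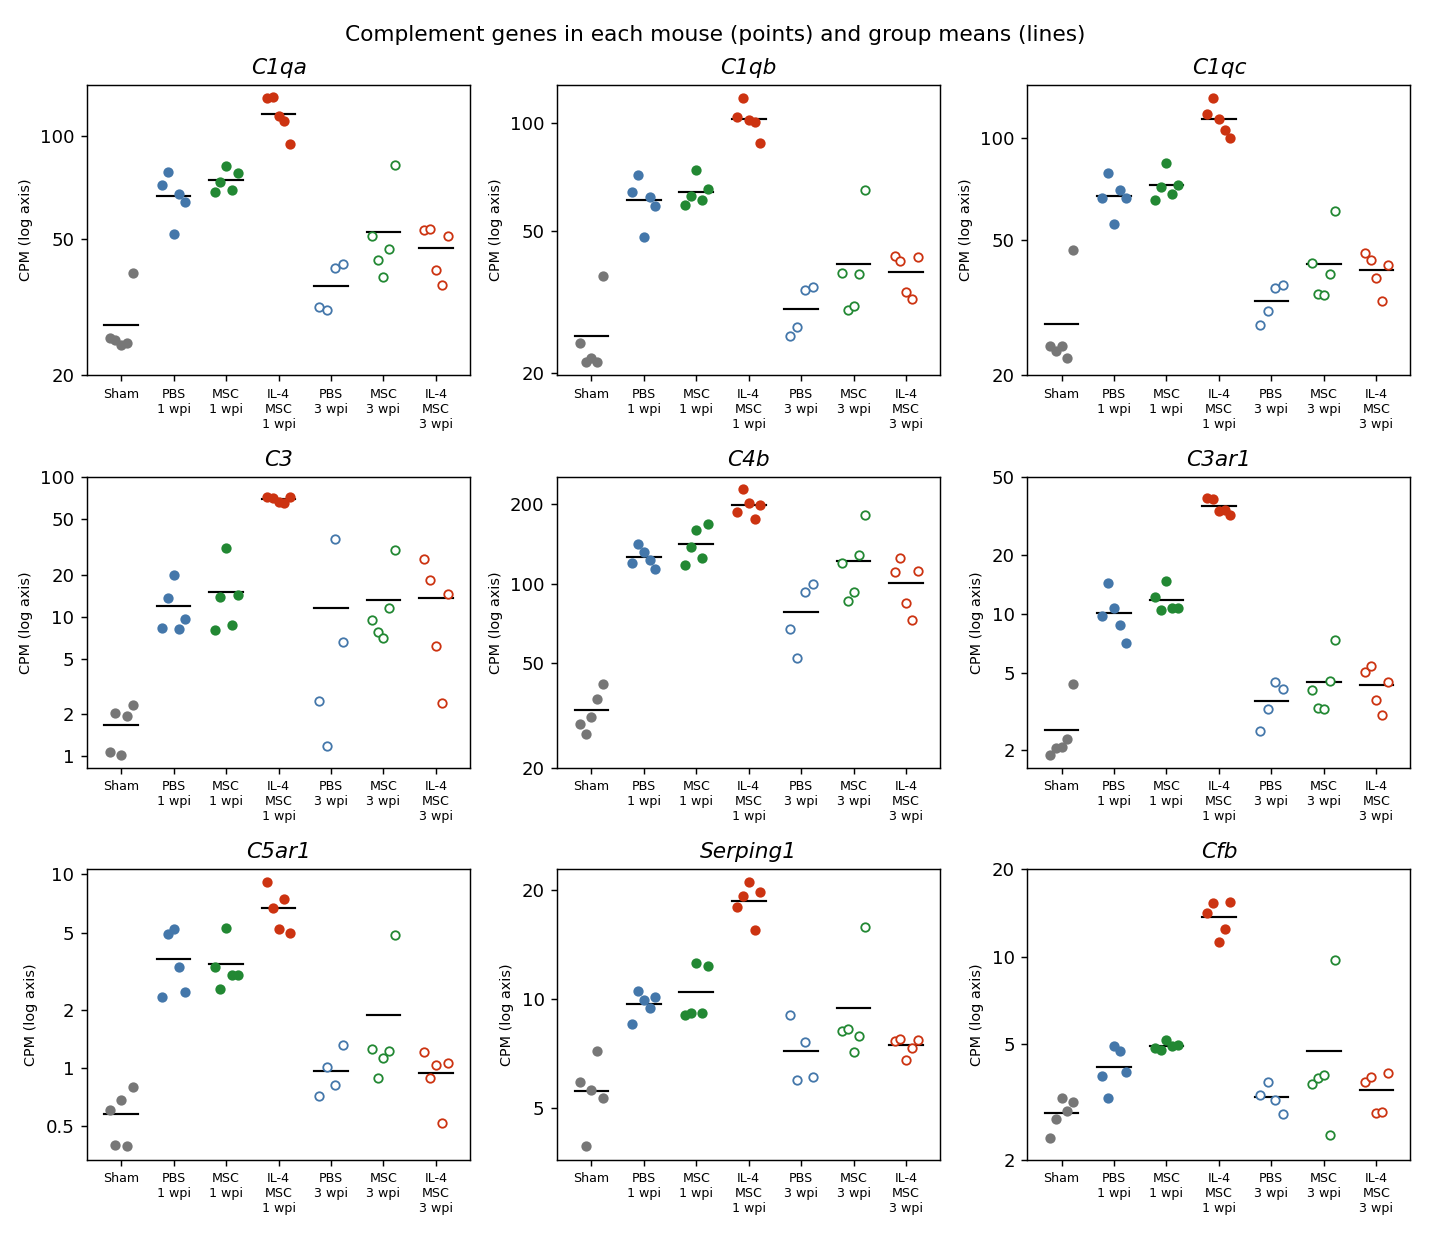
CPM of each complement gene (log axis) in every mouse, one panel per gene, with filled points for Sham and 1 wpi and open points for 3 wpi. All 1 wpi mice lay above all Sham mice in each panel, and the IL-4 MSC 1 wpi mice lay above all PBS and MSC 1 wpi mice in each panel except that of C5ar1, where they overlapped.

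**Figure D3:**
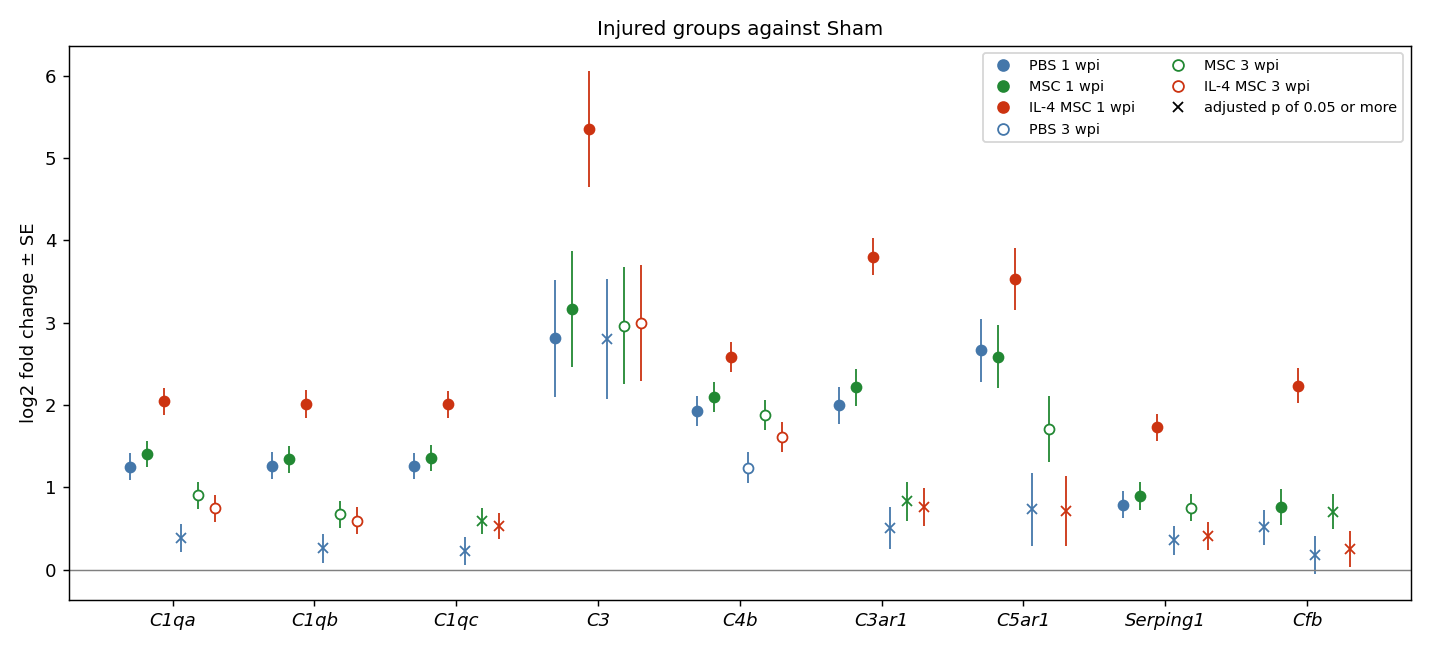
Log2 fold change against Sham (edgeR, error bars 1 SE) of each member in the 6 injured groups, with crosses for an adjusted p of 0.05 or above. The 1 wpi values ran from 0.52 for Cfb in PBS to 5.35 for C3 in IL-4 MSC, and at 3 wpi C4b alone was called in all 3 groups.

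The C1q chains, which together form the molecule that binds antibody, debris and synapses, rose together at 1 wpi. C1qa was at 24.6, 24.8, 25.5, 25.6 and 39.8 CPM in the 5 Sham mice, and at 51.6, 64.0, 68.0, 71.9 and 78.5 in PBS 1 wpi. C1qa was at 68.6, 69.4, 73.4, 78.2 and 81.9 in MSC 1 wpi and at 94.8, 110.4, 115, 129 and 129.9 in IL-4 MSC 1 wpi. Sham replicate 5 was the highest Sham mouse, and the IL-4 MSC mice were all above the PBS and MSC mice, which overlapped each other. C1qa rose by 1.25 ± 0.16 on the log2 scale in PBS (± SE, adjusted p = 1.57e-06), by 1.41 ± 0.16 in MSC and by 2.05 ± 0.16 in IL-4 MSC (adjusted p = 9.32e-12), the last a 4.13-fold level (95% interval 3.27 to 5.21). C1qb ranged over 21.5 to 37.4 CPM in Sham and 88.0 to 117 in IL-4 MSC 1 wpi (a rise of 2.01 ± 0.17), and C1qc over 22.5 to 46.9 and 100.3 to 131 (2.01 ± 0.16).

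At 3 wpi C1qa was at 31.0, 31.8, 41.2 and 42.4 CPM in PBS, at 38.8, 43.4, 46.7, 51.1 and 82.2 in MSC and at 36.8, 40.6, 51.0, 53.3 and 53.7 in IL-4 MSC. In all 3 groups these mice overlapped Sham only at Sham replicate 5, and MSC replicate 5 was far above the rest of its group. C1qa rose in MSC (0.90 ± 0.16, adjusted p = 0.00207) and IL-4 MSC (0.75 ± 0.16, adjusted p = 0.00772), and these calls were kept with any 1 mouse left out but not against the 3 Sham mice of week 3 alone (0.79, adjusted p = 0.0525, and 0.63, adjusted p = 0.101). The C1qb call in MSC (0.67 ± 0.17, adjusted p = 0.0332) was lost without MSC replicate 5 (0.43, adjusted p = 0.273) or without Sham replicate 1, 2, 3 or 4 (adjusted p up to 0.119), and that in IL-4 MSC (0.60 ± 0.17, adjusted p = 0.0347) was lost when Sham replicate 1, 2, 3 or 4 or IL-4 MSC replicate 1 or 5 was left out (adjusted p up to 0.11). C1qc was not called in either (adjusted p = 0.0614 and 0.0537), but both passed without Sham replicate 5 (0.84, adjusted p = 3.97e-04, and 0.78, adjusted p = 0.00106). With all mice C1qc passed in both by DESeq2 (adjusted p = 0.0150 and 0.0211) and in IL-4 MSC by limma-voom (adjusted p = 0.0327). The ratio of C1qb to C1qa in TPM was 0.801 to 0.899 in Sham, 0.762 to 0.878 in IL-4 MSC 1 wpi and 0.656 to 0.769 in MSC 3 wpi, and that of C1qc to C1qa was 0.759 to 0.984, 0.765 to 0.885 and 0.623 to 0.745. For both ratios every MSC 3 wpi mouse was below every Sham mouse, a difference that was not tested. The other 3 wpi groups overlapped Sham, but their medians were lower too. For C1qb to C1qa these were 0.781 in PBS and 0.784 in IL-4 MSC against 0.848 in Sham. For C1qc to C1qa they were 0.740 and 0.722 against 0.792. In PBS 3 wpi the chains were at 0.38, 0.26 and 0.22 on the log2 scale and none was called.

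C3, the protein on which all complement pathways meet, had the widest range of the group. It was at 1.03, 1.07, 1.94, 2.04 and 2.35 CPM in Sham, and at 8.23, 8.27, 9.70, 13.5 and 19.9 in PBS 1 wpi. C3 was at 8.02, 8.69, 14.0, 14.3 and 30.9 in MSC 1 wpi and at 65.4, 66.0, 71.2, 72.1 and 72.6 in IL-4 MSC 1 wpi. The IL-4 MSC mice lay close together, with a coefficient of variation of 5.01%, and even the highest of the PBS and MSC mice, MSC replicate 3, was below the lowest of them. Against Sham, C3 rose by 2.81 ± 0.71 in PBS (adjusted p = 0.00613), by 3.16 ± 0.70 in MSC (adjusted p = 0.00139) and by 5.35 ± 0.70 in IL-4 MSC (adjusted p = 2.35e-07), the last a 40.9-fold level with a 95% interval of 15.1 to 110.3. Against only the 2 Sham mice of week 1, the rise in PBS was 2.98 but no longer called (adjusted p = 0.0664).

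At 3 wpi C3 differed widely between mice of one group, at 1.18, 2.51, 6.57 and 36.0 CPM in PBS, 7.01, 7.79, 9.41, 11.5 and 30.3 in MSC and 2.4, 6.18, 14.6, 18.4 and 26 in IL-4 MSC. A single PBS mouse, replicate 3, was above every mouse of the other 3 wpi groups while the lowest PBS mouse was within the Sham range, and every MSC and IL-4 MSC mouse was above every Sham mouse. C3 was called in MSC (2.96 ± 0.71, adjusted p = 0.0276) and IL-4 MSC (2.99 ± 0.71, adjusted p = 0.0136) but not in PBS (2.81 ± 0.73, adjusted p = 0.394), where the value was 1.00 with replicate 3 left out. The MSC call was lost without MSC replicate 5 (2.39, adjusted p = 0.197) or without Sham replicate 1, 2, 3 or 4, and the IL-4 MSC call was kept with any 1 mouse left out (adjusted p up to 0.0470). Both calls were lost by limma-voom (adjusted p = 0.220 and 0.112) and against the Sham mice of week 3 alone (adjusted p = 0.174 and 0.109).

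C4b, which encodes the C4 protein that C1 cleaves to start the classical convertase, was the one member called against Sham in every injured group of both weeks. It was at 26.8, 29.3, 31.1, 36.4 and 41.6 CPM in Sham, and at 114, 120.1, 123, 132 and 142 in PBS 1 wpi. C4b was at 117, 125, 138, 160.0 and 169 in MSC 1 wpi and at 177, 188, 199, 202 and 228 in IL-4 MSC 1 wpi. At 3 wpi the mice were at 52.2, 67.2, 93.1 and 99.7 in PBS, at 86.3, 93.0, 119, 129 and 182 in MSC and at 72.8, 84.7, 111, 111 and 126 in IL-4 MSC. Every injured mouse of either week was above the highest Sham mouse. C4b rose at 1 wpi by 1.93 ± 0.18 in PBS, 2.10 ± 0.18 in MSC and 2.59 ± 0.18 in IL-4 MSC (adjusted p between 6.83e-13 and 1.32e-08), and at 3 wpi by 1.24 ± 0.19 in PBS (adjusted p = 0.00402), 1.88 ± 0.18 in MSC (adjusted p = 2.40e-07) and 1.61 ± 0.18 in IL-4 MSC (adjusted p = 4.06e-06). The call in PBS 3 wpi, a group of 4 mice, was lost without replicate 3 (1.14, adjusted p = 0.0569) or replicate 4 (1.10, adjusted p = 0.0695) and in a fit of the 2 groups alone (adjusted p = 0.184). In TPM the ratio of C3 to C4b was 0.0306 to 0.0630 in Sham, 0.0603 to 0.140 in PBS 1 wpi, 0.0595 to 0.176 in MSC 1 wpi and 0.291 to 0.357 in IL-4 MSC 1 wpi, where no mouse overlapped those of the other 1 wpi groups.

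Cfb, factor B of the alternative pathway, changed little in injured mice given PBS and most in those given IL-4 MSC. It was at 2.38, 2.75, 2.95, 3.15 and 3.25 CPM in Sham, and at 3.26, 3.89, 4.00, 4.74 and 4.92 in PBS 1 wpi. Cfb was at 4.78, 4.84, 4.94, 4.95 and 5.15 in MSC 1 wpi and at 11.2, 12.5, 14.2, 15.3 and 15.4 in IL-4 MSC 1 wpi. The groups did not overlap Sham in CPM, but the lowest PBS mouse (3.26 CPM) and the highest Sham mouse (3.25) lay side by side. Cfb was at 0.52 ± 0.22 in PBS against Sham (adjusted p = 0.116, not called) and rose by 0.76 ± 0.21 in MSC (adjusted p = 0.0108) and 2.24 ± 0.21 in IL-4 MSC (adjusted p = 2.82e-10). The PBS value was called in a fit of the 2 groups alone (adjusted p = 0.0248). It was also called without Sham replicate 5 and MSC 3 wpi replicate 5 together (0.55, adjusted p = 0.00626). The MSC call was lost against the 2 week 1 Sham mice alone (0.67, adjusted p = 0.115). The deposited TPM gave smaller changes for this gene. The log2 ratio of mean TPM in IL-4 MSC 1 wpi over Sham was 1.48, and those in PBS and MSC were 0.27 and 0.37. The PBS 1 wpi mice (5.22 to 7.85 TPM) overlapped Sham (4.88 to 6.79 TPM). At 3 wpi Cfb was at 2.88 to 3.70 CPM in PBS, at 2.43, 3.66, 3.83, 3.93 and 9.77 in MSC and at 2.89 to 3.98 in IL-4 MSC and was called in none, and MSC replicate 5 was the only 3 wpi mouse above 4 CPM.

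C3ar1, the receptor for C3a on microglia and macrophages, rose in every 1 wpi group. It was at 1.90, 2.06, 2.07, 2.28 and 4.38 CPM in Sham, and at 7.05, 8.73, 9.68, 10.6 and 14.3 in PBS. C3ar1 was at 10.5, 10.7, 10.7, 12.2 and 14.7 in MSC and at 32.1, 33.4, 33.9, 38.8 and 39.0 in IL-4 MSC. Again the highest Sham value was replicate 5, and the IL-4 MSC mice stood apart from a PBS and an MSC group that overlapped. The rises against Sham were 2.00 ± 0.23 in PBS, 2.21 ± 0.23 in MSC and 3.80 ± 0.23 in IL-4 MSC (adjusted p = 1.95e-14), the last a 14.0-fold level (95% interval 10.1 to 19.3). At 3 wpi C3ar1 was at 2.52 to 4.46 CPM in PBS, 3.25, 3.29, 4.06, 4.50 and 7.35 in MSC and 3.03 to 5.38 in IL-4 MSC, overlapping Sham, and it was not called (adjusted p = 0.946, 0.0780 and 0.0589). Without Sham replicate 5 it passed in MSC (1.11, adjusted p = 0.00683) and IL-4 MSC (1.04, adjusted p = 0.00807). With all mice it passed in both by DESeq2 (adjusted p = 0.0170 and 0.0185).

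C5ar1, the receptor through which C5a attracts and activates phagocytes, was the lowest member in CPM, with 13 to 26 counts in the Sham libraries. It was at 0.394, 0.402, 0.604, 0.687 and 0.803 CPM in Sham, and at 2.31, 2.46, 3.33, 4.93 and 5.24 in PBS 1 wpi. C5ar1 was at 2.55, 3.03, 3.03, 3.34 and 5.31 in MSC 1 wpi and at 4.99, 5.21, 6.69, 7.49 and 9.08 in IL-4 MSC 1 wpi. All 1 wpi mice were above all Sham mice, but the IL-4 MSC group overlapped both of the others. The rises were 2.67 ± 0.38 in PBS (adjusted p = 6.52e-06), 2.58 ± 0.38 in MSC and 3.53 ± 0.38 in IL-4 MSC (adjusted p = 4.22e-09). At 3 wpi C5ar1 was at 0.716 to 1.32 CPM in PBS, at 0.888, 1.13, 1.22, 1.26 and 4.84 in MSC and at 0.519 to 1.21 in IL-4 MSC. It was called in MSC (1.71 ± 0.40, adjusted p = 0.0208), a call lost without MSC replicate 5 (0.96, adjusted p = 0.283) or Sham replicate 1, 2, 3 or 4 (adjusted p up to 0.0846), and in neither of the others (0.73 and 0.71).

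Serping1, the C1 inhibitor that restrains the classical pathway at its first step, also rose. It was at 3.93, 5.34, 5.61, 5.91 and 7.21 CPM in Sham, and at 8.53, 9.42, 9.96, 10.1 and 10.5 in PBS 1 wpi. Serping1 was at 9.06, 9.17, 9.17, 12.4 and 12.6 in MSC 1 wpi and at 15.5, 17.9, 19.2, 19.7 and 20.9 in IL-4 MSC 1 wpi. No 1 wpi mouse overlapped Sham and no IL-4 MSC mouse overlapped the other 1 wpi groups. Serping1 rose by 0.79 ± 0.17 in PBS (adjusted p = 0.00105), 0.90 ± 0.17 in MSC and 1.73 ± 0.17 in IL-4 MSC (adjusted p = 3.90e-10). Against the 2 Sham mice of week 1 the value in PBS was 0.60 and not called (adjusted p = 0.0785). At 3 wpi it was at 6.00 to 9.01 CPM in PBS, 7.17, 7.91, 8.15, 8.28 and 15.7 in MSC and 6.80 to 7.78 in IL-4 MSC, and the MSC call (0.75 ± 0.17, adjusted p = 0.0141) was lost without MSC replicate 5 (0.48, adjusted p = 0.126) or Sham replicate 2 (0.65, adjusted p = 0.0772).

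At 1 wpi IL-4 MSC mice had higher levels of most members than mice given PBS or unmodified MSC. Against PBS 8 of 9 members were higher, where 11.2% of all genes tested were, and against MSC 7 of 9 were, against 7.66%. Cfb, C3ar1 and C3 differed most. Against PBS, C3 was higher by 2.54 ± 0.57 on the log2 scale (adjusted p = 0.00153), C3ar1 by 1.81 ± 0.20 (adjusted p = 4.59e-08) and Cfb by 1.72 ± 0.20 (adjusted p = 1.48e-07), which are 5.82-fold (95% interval 2.61 to 13), 3.50-fold (2.64 to 4.65) and 3.30-fold (2.47 to 4.40) levels. In TPM the log2 ratio for Cfb was 1.21.

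The other members differed by less. Serping1 was higher in IL-4 MSC than in PBS by 0.94 ± 0.16 (adjusted p = 5.04e-05), C1qa by 0.79 ± 0.16 (adjusted p = 3.92e-04), C1qb by 0.75, C1qc by 0.75 and C4b by 0.66 ± 0.17 (adjusted p = 0.00656). C5ar1 was at 0.87 ± 0.31 (adjusted p = 0.0530), short of the call, which it passed by DESeq2 (adjusted p = 0.0475) and limma-voom (adjusted p = 0.00680). Against MSC the differences were 2.19 for C3, 1.59 for C3ar1, 1.47 for Cfb (1.11 in TPM), 0.83 for Serping1 and 0.64, 0.67 and 0.65 for the C1q chains, and C4b (0.49 ± 0.17, adjusted p = 0.0767) and C5ar1 (0.95 ± 0.31, adjusted p = 0.0557) were not called. In CPM every IL-4 MSC mouse was above every PBS mouse and every MSC mouse for 8 of 9 members, all but C5ar1. This held for 9.62% and 7.34% of genes. In TPM C4b of IL-4 MSC (77.2 to 98.9) overlapped that of MSC (54.1 to 79.6).

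Mice given unmodified MSC were not shown to differ from PBS mice at 1 wpi. No member was called by edgeR, DESeq2 or limma-voom where 0.123% of genes were called in either direction. None had an unadjusted p under 0.05, as 4.52% of genes did, and the log2 differences ran from −0.08 for C5ar1 to 0.35 for C3. The 95% intervals were −0.17 to 0.47 for C1qa, −0.18 to 0.52 for C4b, −0.19 to 0.63 for C3ar1, −0.18 to 0.67 for Cfb and −0.81 to 1.51 for C3, so a change of the size seen with IL-4 MSC lay outside the interval for each of these.

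At 3 wpi no member was called between treatments. In IL-4 MSC against PBS the log2 differences lay between −0.02 and 0.37, in IL-4 MSC against MSC between −0.997 and 0.03, and in MSC against PBS between 0.16 and 0.97, with 0 of 9 called in each by edgeR, DESeq2 or limma-voom, where 2.94%, 3.47% and 0.0817% of genes were called in either direction by edgeR. At an unadjusted p under 0.05 these comparisons held 1 (C1qa), 3 (C5ar1, Serping1 and Cfb) and 7 members (all but C3 and C3ar1), where 16.9%, 17.9% and 5.73% of genes passed. Without MSC replicate 5 the last 2 counts were 0 and 1 (C4b). The extremes of −0.997 and 0.97 were both C5ar1, which was at −0.25 and 0.23 without that mouse. The intervals were wide for C3 (−1.04 to 1.42 in IL-4 MSC against PBS) and C5ar1 (−0.87 to 0.83) and narrower for C1qa (0.01 to 0.71), C4b (−0.01 to 0.75) and Serping1 (−0.31 to 0.41).

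From 1 to 3 wpi the members fell, most in IL-4 MSC mice. All 9 fell in IL-4 MSC, with log2 changes from −0.98 for C4b to −3.04 for C3ar1, where 16.6% of genes fell. In PBS 6 of 9 fell, where 4.9% of genes did: C5ar1 (−1.93 ± 0.39), C3ar1 (−1.49 ± 0.23), C1qc (−1.04 ± 0.17), C1qb (−1.01 ± 0.17), C1qa (−0.87 ± 0.17) and C4b (−0.69 ± 0.19, adjusted p = 0.0206), the last lost without PBS 1 wpi replicate 2 or PBS 3 wpi replicate 1 or 2 (adjusted p up to 0.139). C3 was at −0.01 ± 0.61 in PBS and Cfb at −0.34 ± 0.23, neither called. The C3 value rested on PBS 3 wpi replicate 3 (36.0 CPM). The other mice of that group, at 1.18, 2.51 and 6.57 CPM, were below the lowest PBS 1 wpi mouse (8.23). In MSC 3 of 9 fell, C1qb (−0.67 ± 0.16), C1qc (−0.77 ± 0.16) and C3ar1 (−1.38 ± 0.21), where 4.93% of genes did. Without MSC 3 wpi replicate 5 the count was 7, with C1qa (−0.73), C5ar1 (−1.63), Serping1 (−0.42) and Cfb (−0.52) added.

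Whether the treatment effect itself differed between weeks was tested as an interaction, the 1 wpi difference minus the 3 wpi difference. For IL-4 MSC against PBS it was called for 3 members, where 3.93% of genes were called higher: Cfb (1.64 ± 0.30, adjusted p = 9.17e-04), C3ar1 (1.55 ± 0.31, adjusted p = 0.00203) and Serping1 (0.89 ± 0.24, adjusted p = 0.0227), the last lost without PBS 3 wpi replicate 1 (0.76, adjusted p = 0.0800) or 3 (0.86, adjusted p = 0.0530). For C3 it was 2.35 ± 0.82 (adjusted p = 0.0977). The highest PBS 3 wpi mouse, far from the rest, makes the 3 wpi difference smaller and so this value larger. The C3 interaction was called without PBS 3 wpi replicate 2, the lowest mouse of that group (2.71, adjusted p = 0.0355). For IL-4 MSC against MSC it was called for 8 of 9, all but C3 (2.16 ± 0.79, adjusted p = 0.0915), where 5.96% of genes were. Cfb (1.92 ± 0.29), C3ar1 (1.66 ± 0.30) and Serping1 (1.18 ± 0.23) had the lowest adjusted p, and these 3 alone were called without MSC 3 wpi replicate 5, when C5ar1 went from 1.95 to 1.21 (adjusted p = 0.0513). C4b (0.76, adjusted p = 0.0494) was also lost by limma-voom (adjusted p = 0.0516), with the replicate block (adjusted p = 0.0510), with the striatum covariate (adjusted p = 0.0946), with no filter on low counts (adjusted p = 0.0562) and in the fit of the 4 groups alone (adjusted p = 0.0663). The calls of C1qb, C1qc and C4b were also lost when other single mice of MSC or IL-4 MSC were left out. The count was 5 when MSC 1 wpi replicate 1, 2 or 4, IL-4 MSC 1 wpi replicate 1 or 2, or IL-4 MSC 3 wpi replicate 3 or 4 was left out. For MSC against PBS it was called for 0 of 9 by edgeR, DESeq2 and limma-voom, where edgeR called 0% of genes. At an unadjusted p under 0.05 there was 1 (C5ar1), where 3.34% of genes passed, and 0 without MSC 3 wpi replicate 5.

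**Figure D4:**
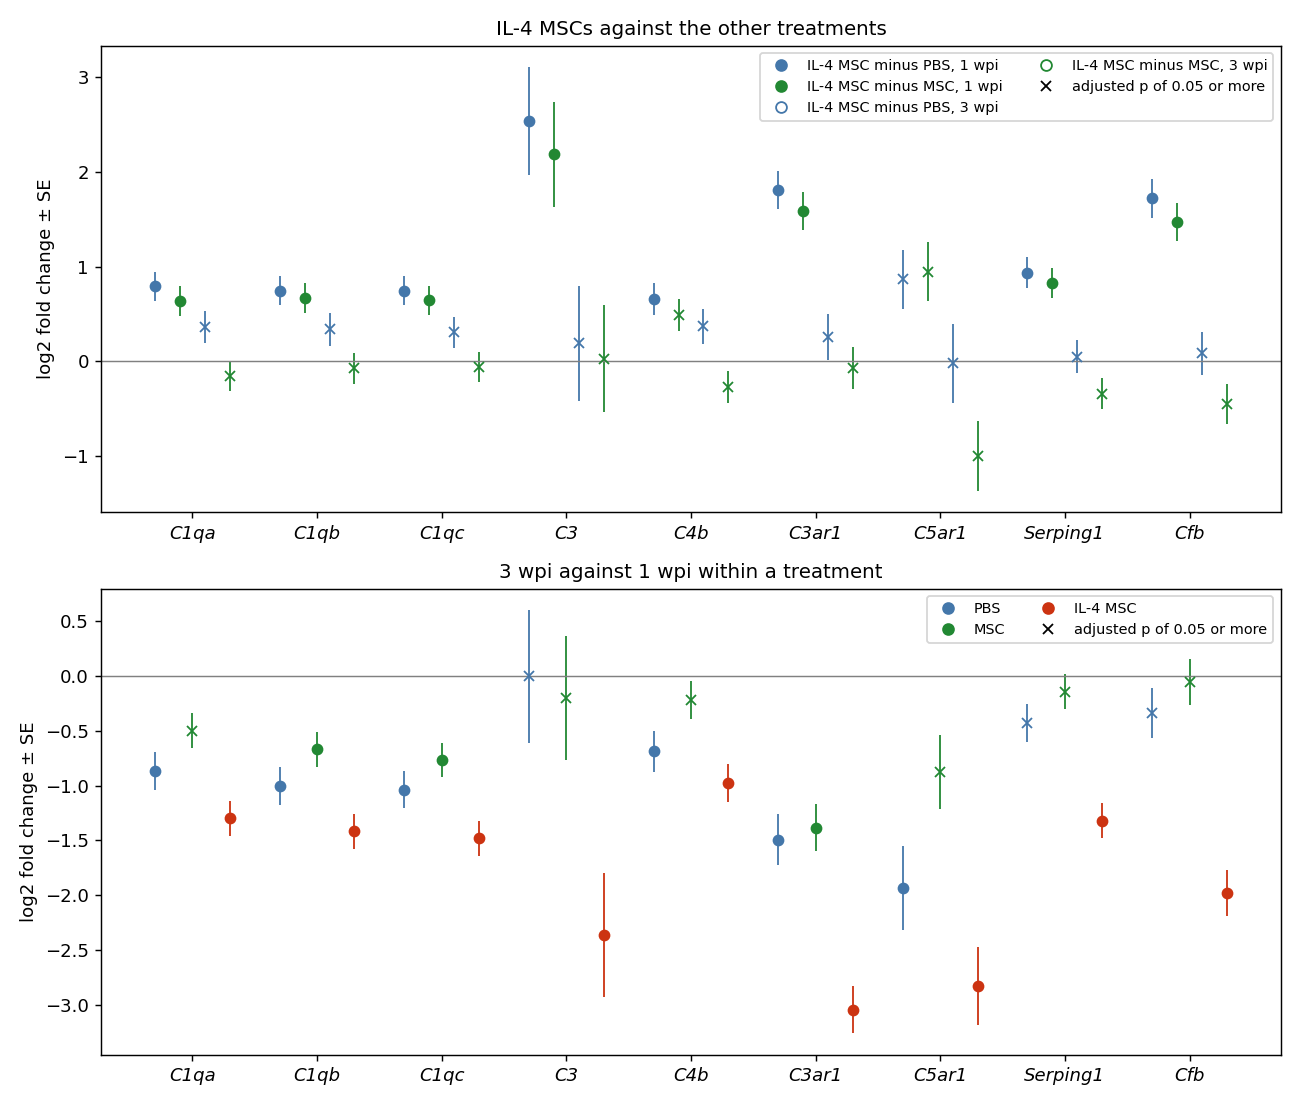
Log2 differences of the 9 members between treatments within a week and between weeks within a treatment (edgeR, error bars 1 SE), with crosses for an adjusted p of 0.05 or above. The 1 wpi differences of IL-4 MSC from PBS and from MSC were above 0 for all 9 members, and the changes from 1 to 3 wpi in IL-4 MSC were all below 0.

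Other complement genes from a list of 52, of which 50 were in the table and 37 could be tested, were called in part. In IL-4 MSC 1 wpi 15 of 37 were higher than in Sham and 5 lower, where 18.4% of genes were called higher and 18.5% lower, and the median of the 37 was 0.12. PBS 1 wpi had 7 of 37 higher and MSC 1 wpi 9 of 37, where 8.73% and 11% of all genes tested were called higher. The proteases that C1q carries rose, C1ra by 2.16 ± 0.17 and C1s1 by 1.73 ± 0.21 in IL-4 MSC against Sham, and both were higher than in PBS, by 1.46 and 0.94. Both have near copies with which reads may be divided. Of the lectin pathway Fcna rose by 1.70 ± 0.28, of the terminal pathway C6 by 0.95 ± 0.36, and of the regulators properdin (Cfp) by 1.01 ± 0.13. Cd93, once named a C1q receptor, rose by 1.36 ± 0.16. The 5 lower genes, named after their values were seen, were Csmd1 (−0.26), Csmd2 (−0.25), Csmd3 (−0.28), Susd4 (−0.17) and Vtn (−0.44).

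The subunits of complement receptors 3 and 4, which bind cleaved C3, differed from each other. Itgam, the chain of receptor 3 that microglia carry, was at 22.9 to 41.6 CPM in Sham, at 49.8 to 69.2 in PBS 1 wpi, at 51.4 to 75.2 in MSC 1 wpi and at 52.4 to 63.9 in IL-4 MSC 1 wpi, so that the 1 wpi groups overlapped and the difference of IL-4 MSC from PBS was 0.00 ± 0.14 (adjusted p = 0.991). Itgb2, the chain both receptors share, was higher in IL-4 MSC than in PBS by 0.97 ± 0.22 (adjusted p = 0.00167), and Itgax, the chain of receptor 4, by 1.42 ± 0.33 (adjusted p = 0.00255). At 3 wpi Itgax stayed above Sham in PBS (2.38), MSC (2.94) and IL-4 MSC (3.05), and C1ra (0.81) and C1s1 (0.80) did in IL-4 MSC. Between treatments at 3 wpi edgeR called 0 of the 37, and 3 (IL-4 MSC against PBS), 9 (IL-4 MSC against MSC) and 4 (MSC against PBS) had an unadjusted p under 0.05, where 16.9%, 17.9% and 5.73% of all genes did.

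Markers of several cell types differed between the same groups, and their part in the complement values was not tested. Some genes of the lists are expressed by more than 1 cell type. The macrophage list holds Mrc1, whose product the paper describes as stimulated by interleukin-4 on macrophages. Whether the level of that list followed cell number or interleukin-4 was not tested. A list of 12 genes of blood-derived macrophages and monocytes, all tested, had a mean log2 CPM of 0.14 to 0.84 in Sham, 1.12 to 2.15 in PBS 1 wpi, 1.53 to 2.32 in MSC 1 wpi and 4.26 to 4.48 in IL-4 MSC 1 wpi, and its summed level was 102 to 157, 168 to 247, 223 to 305 and 673 to 986 CPM. Arg1, one of these genes, was at 0.971 to 9.05 CPM in MSC 1 wpi and 106 to 164 in IL-4 MSC 1 wpi. The 10 microglia genes were at 4.37 to 4.74 in Sham, 5.00 to 5.33 in PBS 1 wpi, 5.11 to 5.24 in MSC 1 wpi and 5.09 to 5.44 in IL-4 MSC 1 wpi, so that the 1 wpi groups overlapped. The astrocyte list was at 7.86 to 8.04 in Sham, 8.39 to 8.56 in PBS 1 wpi, 8.38 to 8.5 in MSC 1 wpi and 8.37 to 8.62 in IL-4 MSC 1 wpi, so that the 1 wpi groups overlapped again. The neuron list was at 9.08 to 9.20, 8.86 to 9.06, 8.94 to 9.02 and 8.86 to 8.96 in these groups. The list of fibroblasts and injected stromal cells was at 3.79 to 4.35 in Sham, 4.3 to 4.69 in PBS, 4.93 to 5.66 in MSC and 5.26 to 5.61 in IL-4 MSC at 1 wpi.

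In MSC 3 wpi replicate 5, the mouse on which several 3 wpi calls rested, the macrophage list was at 2.15 and in the other 4 mice of the group at 0.43 to 0.73. Its neutrophil list was at 0.81 and that of the others at −2.24 to −1.11, while Ly6g, which defines neutrophils, did not pass 0.0647 CPM in any mouse, under the level of 3 counts. Markers of the labelled tissue were present: the list of 8 cortex genes was at 6.49 to 6.66 in Sham and 6.37 to 6.46 in IL-4 MSC 1 wpi, and 13 striatum genes were also found, at 2.99 to 5.36 in Sham and 4.13 to 6.83 in IL-4 MSC 3 wpi. Adding the mean of the striatum genes to the fit ended the calls of C1qb (0.57, adjusted p = 0.164) and C3 (3.08, adjusted p = 0.0555) in IL-4 MSC 3 wpi against Sham.

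Over the 34 mice every pair of members correlated positively, but many other genes followed a member more closely than some fellow members did. Cfb ranked 749 among the genes most like C1qa, and C4b ranked 1360 among those most like Cfb. The mice that stood far above their group for several members are included. The log2 CPM of the C1q chains correlated with each other at r = 0.98 to 0.99 (Pearson, n = 34 mice of 7 groups, which share the group differences), and at 0.93 to 0.97 with the group means subtracted. C3ar1 followed C1qc at 0.98 (0.85 with group means subtracted), and C4b and Cfb were least alike at 0.70 (0.37). The genes of the whole table most like each member over the same mice were Ptpn6 for C1qa after its sister chain (0.98), Fcer1g for C1qb after its sister chains (0.99), Pld4 for C1qc (0.98), Lyz2 for C3 (0.93), Cst7 for C4b (0.95), Cd68 for C3ar1 (0.99), Tlr13 for C5ar1 (0.97), Fgl2 for Serping1 (0.95) and Samd9l for Cfb (0.95). With the group means subtracted they were Ctss for the C1q chains after one another (0.94 to 0.95), A2m for C3 (0.91), Gfap for C4b (0.87), Myo1f for C3ar1 (0.92), Tlr13 for C5ar1 (0.84), Ptgds for Serping1 (0.85) and Stra6 for Cfb (0.81).

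**Figure D5:**
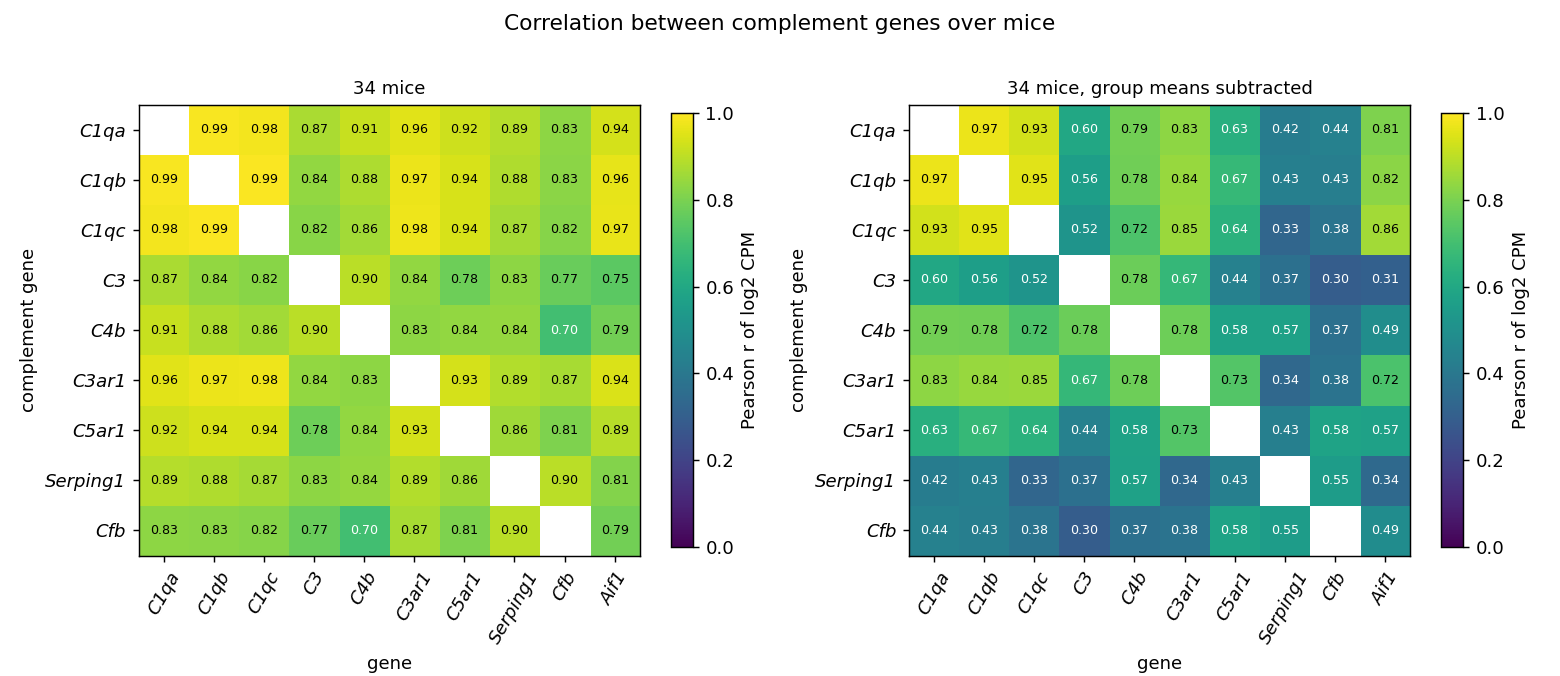
Pearson correlation of log2 CPM between the 9 members over the 34 mice, as measured and with each group's mean subtracted. The C1q chains and C3ar1 were the most alike in both, and Cfb was least like C4b as measured and least like C3 with the group means subtracted (0.30).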

How the data were processed

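Total RNA of the injected brain region was sequenced in paired ends, and 34 libraries of 7 groups were used. The authors trimmed adaptors with cutadapt 2.4, checked quality with FastQC 0.11.8 and pseudo-aligned reads with kallisto 0.46 to protein-coding transcripts, giving the deposited estimated counts and TPM per gene. These values are model-based: reads shared by similar transcripts are divided between them. The table also holds the authors' own comparisons (p, q and fold values), which were not used.

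Estimated counts were rounded and tested with edgeR 4.0.16 (R 4.3.3, TMM scaling, quasi-likelihood fit of all 7 groups, filterByExpr, 17131 genes, Benjamini-Hochberg adjustment, call under 0.05), since the resampling runs that the authors' sleuth test needs were not used here. CPM uses TMM-scaled library sizes, and correlations used log2 CPM with a prior count of 2. limma 3.58.1 and DESeq2 1.42.0 were alternatives. The fit was tested on simulated data. No sample column was left unmapped.

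The libraries held 29838423 to 41554322 counts, so counting error is small except for C5ar1 and C3 in Sham; floors cover counting error only. Replicates are separate mice. Each treated group and week carries its own number in the labels, whose meaning is not stated, so a cage or batch and the group cannot be told apart. Members and lists were chosen with earlier results of these data known. Genes outside the members were named by rule: other complement genes that passed the test with a change of 1 or more on the log2 scale in IL-4 MSC 1 wpi against Sham or PBS, with Itgam and Itgb2 always, and the 3 genes most correlated with each member, of which the first non-members are printed. A gene that the rule names is not reported here. Promoters are from RefSeq (GRCm38.p6), where 5 of 9 members matched.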

Additional observations from a re-analysis of the deposited data

Results flagged for a closer look

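Within groups of 4 or 5 mice, 13 values lay far from the others by Dixon's gap criterion at the 95% level, over 63 gene and group sets. These sets share mice and hold correlated genes, so they are not independent. The nominal 1 in 20 is therefore no measure of how many flags chance would give. Sham replicate 5 was high for C1qa (39.8 CPM), C1qb (37.4), C1qc (46.9) and C3ar1 (4.38). MSC 3 wpi replicate 5 was high for C1qa (82.2 CPM), C1qb (64.8), C3 (30.3), C5ar1 (4.84), Serping1 (15.7) and Cfb (9.77). MSC 1 wpi replicate 3 was high for C3 (30.9 CPM) and C5ar1 (5.31), and PBS 3 wpi replicate 3 was high for C3 (36.0).

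The difference between treatments was larger at 1 wpi than at 3 wpi by the test of the interaction in 11 cases, given as log2 values. For IL-4 MSC against PBS these were C3ar1 (1.55), Serping1 (0.89) and Cfb (1.64). For IL-4 MSC against MSC they were C1qa (0.80), C1qb (0.75), C1qc (0.71), C4b (0.76), C3ar1 (1.66), C5ar1 (1.95), Serping1 (1.18) and Cfb (1.92). Of these, 5 were lost without MSC 3 wpi replicate 5 (C1qa, C1qb, C1qc, C4b and C5ar1, the last at 1.21).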

How the results depend on the processing

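Of 162 gene and comparison pairs 81 were called, and 61 of these were kept under every alternative other than the fold requirement below. Over 3348 repeated single-gene tests 99 lost a call, 59 gained one and 0 called values changed sign. Among 1613 repeats of uncalled values 61 had the other sign. Counts of members called against Sham at 1 wpi held within 1.5 times under every setting run. In PBS 3 wpi against Sham (1 member) DESeq2 called 2 and the fit of the 2 groups alone 0. In MSC 3 wpi against Sham (6 members) limma-voom, the 2-group fit and the 3 Sham mice of week 3 each gave 2, and a log2 fold change of at least 1 gave 3. DESeq2 gave 8 there. In IL-4 MSC 3 wpi against Sham (4 members) the 2-group fit, the striatum covariate and the fold requirement each gave 2 and the week 3 Sham mice 1. Here DESeq2 gave 6. The fold requirement also left 3 of 8 members in IL-4 MSC against PBS and 3 of 7 against MSC at 1 wpi, 1 of 3 in MSC between weeks, and 4 of 8 in the week difference of IL-4 MSC against MSC. In MSC between weeks limma-voom called 5, and 7 were called without both replicate 5 mice, an alternative chosen after seeing the data, as were those leaving mice out of the week differences and the TPM ratios. Leaving out 1 mouse at a time gave 0 to 1, 2 to 8 and 3 to 6 members in PBS, MSC and IL-4 MSC at 3 wpi against Sham, 8 to 9 and 7 to 8 in IL-4 MSC against PBS and MSC at 1 wpi, 5 to 6 in PBS and 3 to 7 in MSC between weeks, and 2 to 4 and 3 to 9 in the week differences of IL-4 MSC against PBS and MSC. The cause of these changes was not tested, beyond the smaller number of mice that the construction of several implies. The replicate number did not pair the mice: deviations from the group means correlated at a median of 0.0116 over 99 same-number pairs, and 5 of 34 libraries were most like one of their own number. With a replicate block 7 members were called in MSC 3 wpi and 5 in IL-4 MSC 3 wpi against Sham, 4 in MSC between weeks and 7 in the week difference of IL-4 MSC against MSC, and the block changed no other count. Levels held within 1 SD in 63 of 63 cases under total-count CPM, and 7 of 90 log2 ratios of mean TPM lay beyond 1 SE of the edgeR value, with 0 reversed. Depth limits C5ar1 and C3 in Sham, where counts are low.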
